A study of Mus musculus with 8 samples.

Results

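Deoxynucleotide supply genes encode the enzymes that make, recycle and remove the building blocks of DNA. The 9 genes described here are Rrm1, Rrm2, Rrm2b, Tyms, Tk1, Dck, Dut, Dctd and Samhd1, taken by symbol from a deposited table of 22274 genes. Each symbol matched 1 row, and all 9 were among the 13702 genes with enough reads to be tested. Their levels were compared between cells given Cre and cells given GFP.

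RNA of a mouse kidney line, labelled RFB and described as fibroblasts, was sequenced in 8 libraries. All of the cells had been treated with TGF-β, a cytokine that induces matrix production, and no sample without TGF-β is among those used here. Cells of 4 libraries received the treatment labelled ad-GFP, the control, and cells of the other 4 that labelled ad-CRE. These names are read here as adenoviruses carrying green fluorescent protein or the Cre recombinase, which the labels do not spell out. The design text names a Suv39h1 knockdown. The genotype of the line, the floxed allele if any, the dose and time of TGF-β and virus, and whether the line is a single clone were not stated in the labels used here. Nothing states that the replicates were separate cultures. The p-values therefore reflect only how much these libraries vary, and that variation may be technical.

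Ribonucleotide reductase converts ribonucleotides to deoxyribonucleotides and is the entry point of the pathway. Its large subunit RRM1 pairs with RRM2, the small subunit of dividing cells, or with RRM2B, a small subunit induced by p53 that also serves resting cells. Thymidine nucleotides need extra steps: DCTD and DUT both yield dUMP, and thymidylate synthase (TYMS) methylates it. TK1 and DCK instead phosphorylate nucleosides that the cell salvages, and SAMHD1 hydrolyses finished dNTPs. Several of these genes are transcribed mainly around S phase, whereas Rrm2b is not tied to it.

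Total counts were 15998257 to 20920828 in the ad-GFP and 17572152 to 22297598 in the ad-CRE libraries. Mitochondrially encoded transcripts took 6.46% to 6.60% of counts in ad-GFP and 7.20% to 7.42% in ad-CRE. Levels below are CPM (read counts scaled to library size, with TMM factors). The named target was examined first. Suv39h1 went from 41.5 ± 3.16 CPM in the controls to 32.5 ± 0.795 CPM (SD, n = 4 each) with ad-CRE, a log2 fold change of −0.35 (SE 0.053; adjusted p = 8.65e-07, edgeR). Smarca4, which encodes the chromatin remodelling ATPase BRG1 and was chosen because earlier results on these libraries were known, had 288 ± 11.1 and 34.3 ± 3.2 CPM. It was 8.39-fold lower, a log2 fold change of −3.07 (SE 0.044; adjusted p = 3.82e-31, edgeR). The fall of the named target was thus much the smaller of the 2, and which gene Cre acted on is not settled by the labels or these values. The labelled cell type was checked on marker genes. Fibroblast markers (9 genes) summed to 3489 to 3603 CPM in the controls and 1868 to 1988 CPM with ad-CRE, and 8 of the 9 fell. Vim and Acta2, at 1614 and 1645 CPM in the controls, made up most of that sum. Pdgfra rose from 3.79 to 4.85 CPM (log2 fold change 0.36, edgeR adjusted p = 0.0163). Epithelial markers (5 genes) summed to 1707 to 1919 CPM in the controls and 4432 to 4642 CPM with ad-CRE, and all 5 rose. Over all genes tested, 36.3% fell and 36.8% rose (edgeR adjusted p under 0.05). Endothelial markers (3 genes) summed to 76.5 to 84.5 CPM and 37.0 to 44.3 CPM, and leukocyte markers (3 genes) to 63.5 to 78.1 CPM and 41.5 to 43.7 CPM. No marker was at 0 in all libraries, although the fibroblast marker Dcn had only 3.87 CPM in the controls and 0.362 CPM with ad-CRE. Epithelial transcripts were thus present in every library of a line described as fibroblasts. The part of these shifts in the results below was not tested.

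Of the 9 genes, 7 fell and 2 rose in ad-CRE. The falls were those of Rrm1, Rrm2, Tyms, Tk1, Dut, Dck and Samhd1, and the rises those of Rrm2b and Dctd. Among all genes tested, 36.3% fell and 36.8% rose at the same threshold (edgeR quasi-likelihood test, p adjusted by Benjamini-Hochberg and under 0.05). A pass alone therefore says little about these genes, since 73.1% of all genes passed. By at least 1 log2 unit, 5 of the 9 fell, against 9.43% of all genes. The median log2 fold change was −1.19 over the 9 genes and 3.87e-05 over all genes tested. Every ad-CRE library lay below every ad-GFP library for the 7 genes that fell, as for 32.8% of all genes, and above for Rrm2b, as for 33.4% (66.2% in either direction). The groups overlapped for Dctd. Fewer cells making a transcript and less of it per cell cannot be told apart in bulk RNA.

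**Figure D1:**
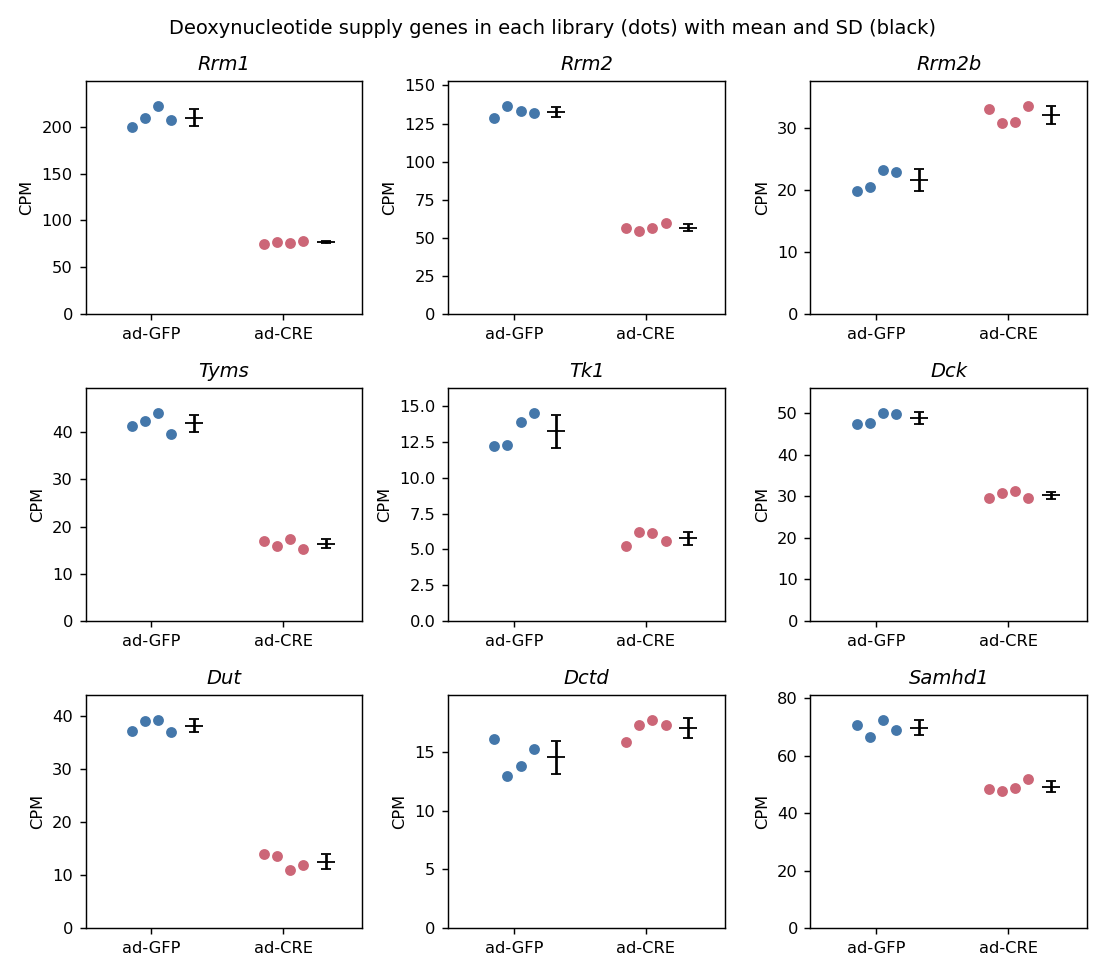
CPM of each of the 9 genes (vertical axes, each from 0) in the 4 ad-GFP and 4 ad-CRE libraries, with dots for libraries in order of replicate number and black marks for mean and SD. The ad-CRE dots lie below all ad-GFP dots in 7 panels, above them for Rrm2b, and overlap them for Dctd.

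Rrm1 (ENSMUSG00000030978, GRCm38 chromosome 7, 102441695 to 102469771, plus strand) encodes the large subunit, which holds the catalytic site. It had 200, 210, 222 and 207 CPM in control (ad-GFP) replicates 1 to 4, and with ad-CRE, in the same order of replicates, 75.2, 77.3, 76.5 and 78.1 CPM. The ad-CRE libraries were tightly grouped at 36.6% of the control mean of 210 CPM. The log2 fold change was −1.45 (SE 0.034; adjusted p = 7.52e-26, edgeR), and 5.57% of genes tested had a lower one. GENCODE places another gene of the same strand over 1016 bases of Rrm1.

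Rrm2 (ENSMUSG00000020649, chromosome 12, 24708241 to 24714146, plus strand) encodes the small subunit that carries the tyrosyl radical in proliferating cells. Its level was 129, 136, 133 and 132 CPM in the controls and 56.5, 54.3, 56.7 and 60.004 CPM with ad-CRE. Both subunit genes therefore fell to less than 50% of the control level in each ad-CRE library. For Rrm2 the log2 fold change was −1.22 (SE 0.036; adjusted p = 3.46e-23, edgeR), and the group means were 133 ± 3.16 and 56.9 ± 2.35 CPM (SD, n = 4).

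The stretch of 150 bases just upstream of the RefSeq start of these 2 genes is shown because both subunits fell together and both stretches hold the word CCAAT, in capitals. The sequences run 5′ to 3′ on the plus strand of GRCm38.p6, at chr7:102441545-102441694 for Rrm1 and chr12:24708104-24708253 for Rrm2.
Rrm1: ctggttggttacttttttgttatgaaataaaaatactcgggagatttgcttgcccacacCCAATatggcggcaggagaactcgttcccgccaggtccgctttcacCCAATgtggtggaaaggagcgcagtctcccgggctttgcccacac
Rrm2: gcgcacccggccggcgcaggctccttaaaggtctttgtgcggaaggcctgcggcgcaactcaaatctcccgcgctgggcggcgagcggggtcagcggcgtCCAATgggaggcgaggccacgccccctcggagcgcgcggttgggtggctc
The CCAAT words begin at −91 and −45 for Rrm1 and at −50 for Rrm2, counted from the start site. RefSeq promoters (250 bases before to 50 after the start) were matched for 8 of the 9 genes, not for Rrm2b. On either strand, CCAAT was found for 3 of these 8 (Rrm1, Rrm2 and Dctd, which did not fall) and in 37.4% of all 32851 promoters. These shares are close, so nothing is read from the word. Dctd had more than 1 promoter window, and not each of them held CCAAT. The word TTTGAA, known from cell cycle genes as the CHR element, was found for Dck alone and in 17.9% of all promoters. None of the E2F words TTTCGCGC, TTTGGCGC, TTTCCCGC and TTTGGCGG occurred in the 8 genes' windows, while 2.37% of all promoters held at least 1 of them. With words this rare, their absence from the windows of 8 genes says little, and shorter or inexact E2F words were not searched. These are matches of letters, and no binding was measured.

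Rrm2b (ENSMUSG00000022292, chromosome 15, 37923952 to 37961318, minus strand), the alternative small subunit gene, went the other way. It had 19.9, 20.4, 23.2 and 22.9 CPM in the controls and 33.0, 30.8, 31.0 and 33.5 CPM with ad-CRE. Every ad-CRE library was above every control, with a mean 1.48 times that of ad-GFP. The log2 fold change was 0.57 (SE 0.059; adjusted p = 4.7e-10, edgeR), and 13.1% of genes tested had a higher one. GENCODE places an antisense gene over 848 bases of Rrm2b and a processed pseudogene of the same strand over 466 bases. The sources used here do not give whether reads were counted by strand.

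Tyms (ENSMUSG00000025747, chromosome 5, 30058202 to 30073617, minus strand) encodes thymidylate synthase, the source of new thymidylate. Its level was 41.4, 42.4, 44.1 and 39.7 CPM in the controls and 16.9, 15.97, 17.4 and 15.3 CPM with ad-CRE. The highest ad-CRE library did not reach 50% of the lowest control. The fall was 2.55-fold, with a log2 fold change of −1.35 (SE 0.056; adjusted p = 1.97e-19, edgeR). A processed pseudogene, Tyms-ps, lies on another chromosome, and the sources used here do not give how shared reads were treated.

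Dut (ENSMUSG00000027203, chromosome 2, 125247190 to 125258608, plus strand) encodes dUTPase, which keeps uracil out of DNA and supplies dUMP to thymidylate synthase. It had 37.1, 39.0, 39.3 and 37.0 CPM in the controls and 13.8, 13.5, 10.8 and 11.9 CPM with ad-CRE. This was the largest fall of the 9 genes, 3.04-fold, with a log2 fold change of −1.60 (SE 0.065; adjusted p = 1e-19, edgeR). The ad-CRE values varied more than those of the other 8 genes in that group, with a coefficient of variation of 11.2%, on 207 to 306 reads per library.

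Dctd (ENSMUSG00000031562, chromosome 8, 48099092 to 48153233, plus strand) encodes dCMP deaminase, another source of dUMP. Its 4 control libraries had 16.1, 13.0, 13.8 and 15.3 CPM, and its 4 ad-CRE libraries 15.8, 17.3, 17.8 and 17.3 CPM. Control replicate 1 lay above ad-CRE replicate 1, so the groups overlapped. In counts Dctd passed with a log2 fold change of 0.23 (SE 0.074; adjusted p = 0.00702, edgeR). On the log2(FPKM + 1) scale it did not pass (0.20, limma adjusted p = 0.109), nor on the log2(FPKM + 0.1) scale (0.22, limma adjusted p = 0.106), although the direction and approximate size were kept.

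Tk1 (ENSMUSG00000025574, chromosome 11, 117815526 to 117826092, minus strand) encodes the cytosolic thymidine kinase, which salvages thymidine in S phase. It had 12.2, 12.3, 13.9 and 14.5 CPM in the controls and 5.25, 6.19, 6.15 and 5.59 CPM with ad-CRE. Its fall was 2.28-fold, a log2 fold change of −1.19 (SE 0.097; adjusted p = 3.45e-12, edgeR), on 97 to 258 reads per library, the fewest of the 9 genes. The first 169 bases of Tk1 overlap Afmid, a gene on the opposite strand. Afmid rose from 6.17 to 10.001 CPM, a log2 fold change of 0.69, opposite to that of Tk1. Another opposite-strand gene shares 10567 bases with Tk1 and had 19 reads over all libraries.

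Dck (ENSMUSG00000029366, chromosome 5, 88764996 to 88783281, plus strand) encodes deoxycytidine kinase, which also phosphorylates purine deoxynucleosides. Its level was 47.4, 47.5, 50.04 and 49.9 CPM in the controls and 29.6, 30.9, 31.1 and 29.5 CPM with ad-CRE. The groups were well apart and each varied by less than 3%. The ad-CRE mean was 62.2% of the control mean, with a log2 fold change of −0.68 (SE 0.047; adjusted p = 4.49e-14, edgeR).

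Samhd1 (ENSMUSG00000027639, chromosome 2, 157097533 to 157135265, minus strand) encodes the dNTP hydrolase that limits dNTP pools outside S phase and restricts some viruses. It had 70.7, 66.4, 72.6 and 69.0 CPM in the controls and 48.3, 47.8, 48.9 and 51.9 CPM with ad-CRE. The gene for dNTP removal thus fell along with most of the genes for synthesis, to 70.6% of the control. Its log2 fold change of −0.50 (SE 0.042; adjusted p = 5.64e-12, edgeR) was the smallest of the 7 falls.

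**Figure D2:**
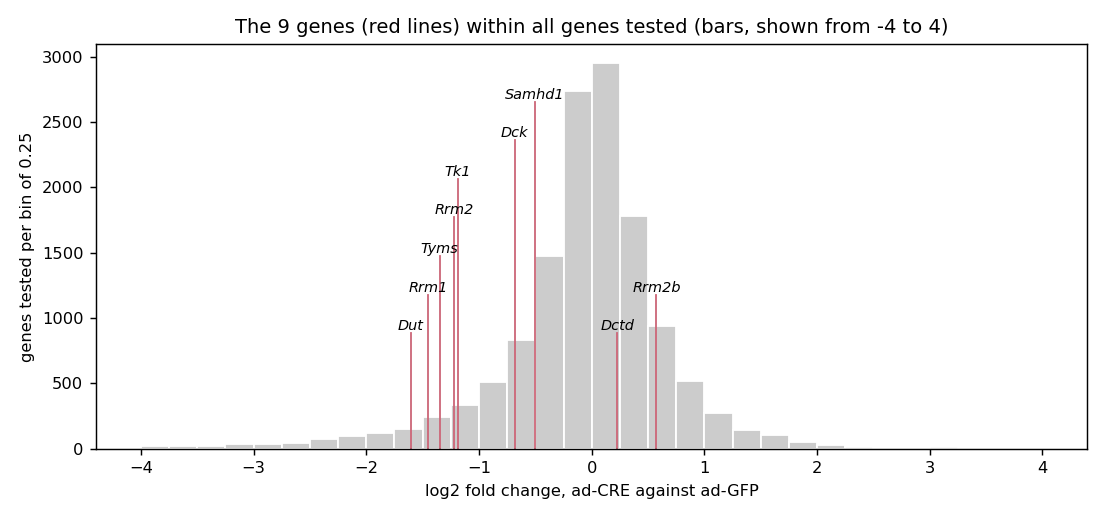
Number of genes tested (bars) by log2 fold change between ad-CRE and ad-GFP in bins of 0.25, with red lines at the 9 genes; line heights carry no value. Dut, Rrm1, Tyms, Rrm2 and Tk1 lie between −1.60 and −1.19, in the lower tail, and Rrm2b and Dctd lie above 0.

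Levels of different genes were compared on the deposited FPKM scale, which corrects for gene length. In ad-GFP the order was Rrm2 (61.9 FPKM), Rrm1 (54.1), Dut (29.3), Tyms (28.8), Samhd1 (25.9), Dck (15.97), Tk1 (9.27), Dctd (8.23) and Rrm2b (5.86). The ranges over libraries overlapped for Dut and Tyms and for Tk1 and Dctd, and for no other neighbours. In ad-CRE the order was Rrm2 (26.3 FPKM), Rrm1 (19.1), Samhd1 (17.7), Tyms (10.8), Dut (9.87), Dck (9.74), Dctd (9.49), Rrm2b (8.07) and Tk1 (3.98). There Tyms, Dut and Dck each overlapped the next in order, Dctd did not overlap Rrm2b, and Samhd1 stood above Tyms, Dut, Dck and Dctd. Rrm2b moved from the lowest place to above Tk1. Its share of the 2 small subunit transcripts (FPKM of Rrm2b over that of Rrm2b plus Rrm2) was 9.39%, 8.17%, 8.10% and 8.92% in ad-GFP and 24.3%, 22.8%, 23.3% and 23.4% in ad-CRE. The share was thus higher in all 4 ad-CRE libraries, at 23.4% ± 0.621 against 8.65% ± 0.62 (SD, n = 4), and Rrm2 remained the more abundant of the pair.

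The length that the deposited values imply, CPM on total counts divided by FPKM, was not fixed for every gene. For Tk1 and Dck it was 1.44 and 3.08 kb in each library, with a spread of 0.115% and 0.0783%. For Rrm2b it ranged from 3.22 to 4.30 kb, for Dctd from 1.59 to 2.08 kb and for Tyms from 1.31 to 1.59 kb. FPKM and counts therefore give different fold changes for these genes. For Rrm2b the authors' deposited table has a log2 fold change of 0.46 and for Dctd of 0.21. The sources used here do not give how the authors set the lengths.

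Whether partner genes changed by different amounts was tested on the ratio of their read counts within each library, which does not depend on the scaling of libraries. Count ratios are not corrected for gene length, so their levels do not give which gene of a pair is the more abundant. There were 7 ratios, each compared by an exact two-sided permutation test over the 70 ways to assign the group labels, for which 0.0286 is the smallest p possible. Of the 7, 6 reached that p (Benjamini-Hochberg adjusted p = 0.0333 over the 7). The share of all gene pairs that would reach it was not computed. For single genes the groups did not overlap in 66.2% of those tested, so the count of 6 says little. Since these genes were proposed with earlier results known, the values are mainly a description of size. Intervals in the next paragraph are 95% intervals from the same exact test.

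The Rrm2 to Rrm2b count ratio was 6.47, 6.68, 5.74 and 5.75 in ad-GFP and 1.71, 1.76, 1.83 and 1.79 in ad-CRE. The balance of the small subunit genes moved 3.47-fold towards Rrm2b, a log2 difference of −1.79 (interval −1.97 to −1.65). The Rrm2 to Rrm1 ratio went from 0.645, 0.651, 0.601 and 0.638 to 0.751, 0.703, 0.741 and 0.768, a log2 difference of 0.22 (interval 0.11 to 0.35). The large subunit gene therefore fell a little more than its partner. The Dut to Dctd ratio, between 2 of the sources of dUMP, fell from 2.30, 3.01, 2.83 and 2.42 to 0.874, 0.778, 0.610 and 0.688. That is a log2 difference of −1.84 (interval −2.30 to −1.40). Dctd reads outnumbered Dut reads in all 4 ad-CRE libraries and in no ad-GFP library. With gene length corrected (FPKM), the mean Dut to Dctd ratio was 3.66 in ad-GFP and 1.04 in ad-CRE. Tyms and Tk1, the synthesis and salvage routes to thymidylate, did not pass: the log2 difference was −0.17 (interval −0.42 to 0.23, exact permutation p = 0.2). Log2 differences in their ratio from −0.42 to 0.23 are not excluded by these libraries.

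The cytosolic kinases were set beside the mitochondrial ones, which support mitochondrial DNA. Tk2, the mitochondrial thymidine kinase gene, rose from 15.4 to 19.4 CPM (log2 fold change 0.33, edgeR adjusted p = 6.45e-05). The Tk1 to Tk2 ratio had a log2 difference of −1.52 (interval −1.84 to −1.23), from 0.766 to 1.0 in ad-GFP to 0.278 to 0.326 in ad-CRE. On the FPKM scale the mean of this ratio was 1.32 in ad-GFP and 0.45 in ad-CRE. Dguok, encoding the mitochondrial deoxyguanosine kinase, had 7.84 and 7.08 CPM and did not pass (edgeR adjusted p = 0.203). The Dck to Dguok ratio had a log2 difference of −0.54 (interval −0.92 to −0.20). The Rrm1 to Samhd1 ratio, between synthesis and breakdown, was 2.82 to 3.15 in ad-GFP and 1.51 to 1.62 in ad-CRE, a log2 difference of −0.95 (interval −1.07 to −0.80).

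**Figure D3:**
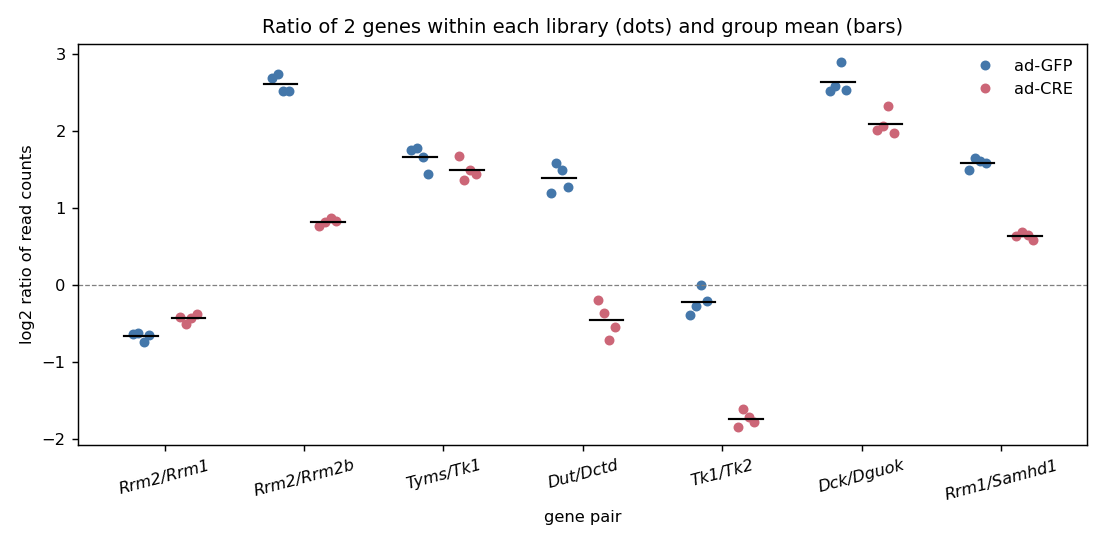
Log2 ratio of read counts (vertical axis) for 7 gene pairs (horizontal axis) in each library, blue for ad-GFP and red for ad-CRE, with bars at group means. The groups are apart for 6 pairs, by 1.79 log2 units for Rrm2/Rrm2b, and overlap for Tyms/Tk1.

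Genes with the most similar pattern were found by the distance between log2 CPM values, centred on the ad-GFP mean, over the 8 libraries. For Rrm1 the nearest of 11077 genes were Pla2g4a, encoding a cytosolic phospholipase, Oxct1, encoding a ketone body enzyme, and Nampt, encoding an NAD salvage enzyme, at distances of 0.099 to 0.11 log2 units. For Rrm2 they were the phosphodiesterase gene Pde8a, the condensin gene Smc4 and the ferritin gene Fth1 (0.11 to 0.13). For Samhd1 they were Safb, Emsy and Pvr (0.083 to 0.093). With 1 contrast this mainly ranks genes by the size of their fold change.

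The counts of the following lists are to be read beside the shares over all genes tested, of which 36.3% fell and 36.8% rose. S phase reference genes fell most uniformly, 17 of 17, with a median log2 fold change of −1.21. Among them the helicase genes Mcm6 and Mcm4 had −1.83 and −1.52, Ccne2, encoding cyclin E2, −2.88, and Mcm7 −0.36. The falls of Rrm1, Rrm2, Tyms, Tk1 and Dut, −1.60 to −1.19, lie within the range of this list. It also holds Ccna2, Mki67 and Top2a (−0.69, −0.59 and −0.34), so the list is not limited to S phase. Of 11 genes for control of ribonucleotide reductase and its reductants, 6 fell and 2 rose (3 did not pass), with a median of −0.42. Ccnf, encoding cyclin F, which marks RRM2 for degradation, had −1.40, the transcription factor gene E2f1 −1.06, and Txnrd1, encoding the thioredoxin reductase, −0.49. Trp53 had 0.04 and did not pass (edgeR adjusted p = 0.166). This is the level of its RNA, and p53 protein and its activity were not measured.

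Of 16 genes of the folate cycle, which carries the methyl group for thymidylate, 9 fell (56.3%) and 4 rose (25%), 3 did not pass, and the median was −0.20. Over all genes tested the shares were 36.3% and 36.8%. The formyltetrahydrofolate dehydrogenase genes Aldh1l2 and Aldh1l1 had −2.35 and −1.48. Shmt2, encoding the mitochondrial serine hydroxymethyltransferase, had −0.83.

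Genes of de novo ribonucleotide synthesis went in both directions, as did all genes tested (36.3% fell, 36.8% rose). Of 5 pyrimidine genes, 3 fell and 2 rose: Umps, which forms UMP, had −0.89 and the CTP synthase gene Ctps −0.56, whereas Cad, for the first steps, rose by 0.63 and Ctps2 by 0.89. Of 13 purine genes, 9 fell (69.2%) and 3 rose (23.1%), 1 did not pass, and the median was −0.23. Gmps and Impdh2, of the GMP branch, had −0.49 and −0.36, and of the adenylosuccinate synthase genes Adss had −0.25 while Adssl1 rose by 1.53.

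Of 27 salvage and nucleotide kinase genes, 10 fell and 10 rose, 37.0% in each direction, with a median of −0.05. These shares are close to those over all genes (36.3% fell, 36.8% rose), so nothing is read from them. Cmpk2, encoding a mitochondrial kinase that interferon induces, had −2.83, from 12.2 to 1.77 CPM. With log2(FPKM + 1) values its fold change was −1.65, since adding 1 compresses low values. The adenylate kinase gene Ak1 had −1.59, whereas the nucleoside diphosphate kinase genes Nme4 and Nme2 rose by 1.27 and 0.20. Of 10 hydrolase and nucleotidase genes, 3 fell and 3 rose, 30.0% in each direction and no more than over all genes, 4 did not pass, and the median was −0.00211. Itpa, encoding inosine triphosphatase, had −0.48 and Nt5e, encoding the ecto-nucleotidase CD73, −0.43, while the deoxyribonucleotidase gene Nt5c rose by 0.58. Nt5c2 had 105 CPM in both groups and did not pass (edgeR adjusted p = 0.996).

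The pathway column of the authors' deposited table gives a wider count. Of its 41 other pyrimidine metabolism genes that were tested, 9 fell (22.0%) and 18 rose (43.9%), 14 did not pass, and the median was 0.04. Of 105 other purine metabolism genes, 43 fell (41.0%) and 31 rose (29.5%), 31 did not pass, and the median was −0.10. Over all genes tested 36.3% fell and 36.8% rose. Both medians are nearer to 0 than that of the 9 genes, −1.19.

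**Figure D4:**
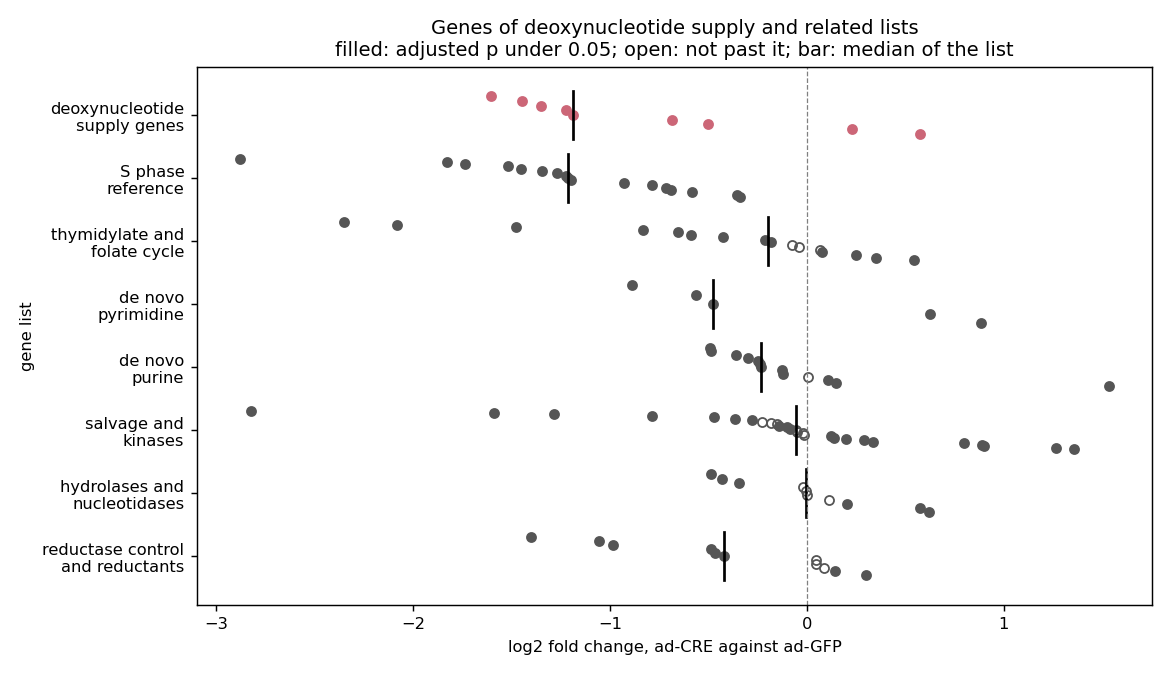
Log2 fold change between ad-CRE and ad-GFP (horizontal axis) of each gene in 8 lists (vertical axis), filled where the adjusted p is under 0.05, with a bar at each list's median. The deoxynucleotide supply genes (median −1.19) and the S phase reference genes (median −1.21) lie furthest to the left, and the salvage genes spread on both sides of 0.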

How the data were processed

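The authors deposited 1 table with a read count and an FPKM value per gene and library, per the file headers. It also holds the authors' log2 fold change (the ratio of mean FPKM values), p-value and FDR. GRCm38 and mm10 are the builds in the submitters' processing notes. The sources used here do not give the aligner, counter or annotation. Coordinates come from GENCODE M21 (GRCm38) and promoters from RefSeq (GRCm38.p6).

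The counts were tested with edgeR 4.0.16 in R 4.3.3 (filterByExpr, TMM factors, quasi-likelihood test, no covariate besides the group). Benjamini-Hochberg adjustment covered all 13702 genes, and 0.05 was the threshold. The SE is the log2 fold change divided by the square root of F. Ratios used log2 of counts with 0.5 added. With 4 libraries a group and a common biological coefficient of variation of 0.0320, small changes passed. No replicate pair was alike within sampling noise (chi-square over its degrees of freedom 1.69 to 3.26).

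The 9 genes, the lists and the tests were chosen with earlier results of these data known. Named genes are the 9, the genes in the 7 ratios, Suv39h1 and Smarca4, the 3 nearest genes for 3 of the 9, and in each list the 3 with the smallest p and the 1 with the highest level. Some genes that this rule takes are left out of the text. Ctps2, Trp53, Dcn, Vim, Acta2, Pdgfra, Afmid, Ccna2, Mki67 and Top2a were named outside this rule after their values were seen. Alternatives were other scalings, filters and tools (DESeq2 1.42.0, limma 3.58.1 on counts and on log2 FPKM), a replicate term, and leaving out each library. The test was tried on simulated data. Far fewer genes were changed there than passed here, so the trial says little about error rates in these data. Protein sequences were not analysed here.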

Additional observations from a re-analysis of the deposited data

How the results depend on the processing

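Over 17 alternatives each, the log2 fold changes of the 9 genes kept their direction, and 151 of 153 kept their side of the threshold. The exceptions were those of Dctd on the log2(FPKM + 1) scale (0.20) and the log2(FPKM + 0.1) scale (0.22), where 1 of the 9 genes rose and not 2, and 7 fell. The cause was not tested. Leaving out each library in turn, Dctd ranged from 0.17 to 0.29, Rrm2b from 0.53 to 0.61, Dut from −1.66 to −1.53 and Rrm1 from −1.47 to −1.42. Nt5c2, close to 0 (−0.0203 to 0.0243 when 1 library was left out), changed sign with no filter beyond 1 read (0.015), limma voom (0.0015), log2(FPKM + 1) (0.057), log2(FPKM + 0.1) (0.059), the replicate block (0.00037), and without ad-GFP replicate 2 (0.0046) or 4 (0.024) or ad-CRE replicate 3 (0.0023) or 4 (0.011), and passed in none. The replicate numbers are not known to pair the libraries: same-numbered libraries correlated by −0.07 to 0.07 in their deviations, and not every library correlated best with its own number. With the replicate block 9963 genes passed, against 10022, and still 7 of the 9 genes fell and 2 rose. The sign-flip test of the ratios with that block cannot go below 0.125, so no ratio could pass it. Its log2 differences are those of the unpaired test: 0.22 for Rrm2/Rrm1, −1.79 for Rrm2/Rrm2b, −1.84 for Dut/Dctd, −1.52 for Tk1/Tk2, −0.54 for Dck/Dguok and −0.95 for Rrm1/Samhd1. Tk1 had the fewest reads of the 9 genes, 97 to 258 per library.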
